A study of Mus musculus with 5 samples.

Results

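Sparse low-methylated tiles are short stretches of the mouse genome with few listed CpGs, away from tiles dense in listed CpGs, in which little of the DNA was methylated. Listed CpGs are those in the deposited libraries. CpGs outside the sequenced fragments were not counted, and no map of CpG islands was used. They were chosen among autosomal tiles of 1000 bases with 3 to 19 listed CpG positions and no tile of 20 or more listed CpGs within 5 tiles on either side. A tile also needed at least 3 CpGs with a count of at least 10 in each of 5 libraries, and a level under 0.30 in K9M replicate 2. Of 96152 such sparse tiles, 6380 met the level rule, which is 6.64% of them and 4.18% of the 152678 tiles measured in all. They held 41345 measured CpGs. The tiles were thus chosen by the level in K9M replicate 2, which is given below as a description only.

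The libraries were made by reduced representation bisulfite sequencing, in which genomic DNA is cut with MspI at CCGG and treated with bisulfite so that methylated cytosines can be told from unmethylated ones. The K36M group (2 libraries) carried a dominant negative H3.3 with methionine in place of lysine 36. The K9M group (2 libraries) expressed a dominant negative H3.3 changed in the same way at lysine 9. Both mutant groups came from mice given 2 mg/ml doxycycline in their drinking water, while the WT group is 1 wildtype library for which the labels name no doxycycline, so that mutation and doxycycline cannot be told apart in a comparison with WT. HSCs (hematopoietic stem cells) is the source name of all libraries, while the growth protocol speaks of sorting from peripheral blood. No gene annotation of the build was used, so the cell type was not checked against marker genes. The promoter that drives the mutant histones, the strain, the age and the number of animals are not given in the sources used here, and the 2 libraries of a mutant group may be technical replicates, in which case p-values measure only technical spread.

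In mammalian genomes most CpGs are methylated, and CpG islands are the best known exception. Outside islands, short stretches of low methylation are known in many cell types and often coincide with distal regulatory elements such as enhancers, where bound transcription factors keep methylation down. Methylation of lysine 36 on histone H3 is read by the PWWP domains of the DNA methyltransferases DNMT3A and DNMT3B, and the K36M mutant is known to inhibit lysine 36 methyltransferases. The K9M mutant is known to lower lysine 9 methylation, a mark of heterochromatin that is also linked to DNA methylation. A level of methylation in a bulk library counts molecules, so a tile at 20% may be methylated in few cells or on part of the molecules in every cell, and these cannot be told apart.

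Levels are given as relative levels, in percent of each library's plateau, the ratio of methylated to second count at the most methylated tiles. The deposited fraction reached only about 0.5 to 0.6 at fully methylated CpGs in 4 of the 5 libraries, and was read there as a methylated count over the sum of that count and a further number, called the second count here and taken to hold methylated and unmethylated reads alike, an interpretation of the values that no source states. Listed CpGs numbered 3356656 to 3534966 per library, and 1780536 autosomal CpGs passed the minimum of 10 second counts in every library. In the low tiles the median second count per CpG was 35.3 and 42.2 in K36M replicates 1 and 2, 34.6 and 44.7 in K9M replicates 1 and 2, and 44.5 in WT. A count of 0 in a low tile of median depth allows a relative level of up to 1.02% to 1.32%, taking 3 counts as the limit and covering counting error only.

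Low tiles held somewhat more listed CpGs than the other sparse tiles, and their measured CpGs lay closer together. The median low tile had 9 listed and 5 measured CpGs, against 7 and 4 in the other 89772 sparse tiles. Its measured CpGs spanned a median of 163 bases, with a median of 20 bases from one CpG to the next, against 149 and 26 bases in the other sparse tiles. Depth was somewhat higher, with a median second count per CpG of 44.5 in low tiles and 38.3 in the other sparse tiles of the WT library. In 33 low tiles, 0.517% of them, the mean second count per CpG passed 112, the 99th percentile of all tiles, and the deepest reached 15126. None of those 33 is among the tiles called below.

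The low tiles had a median relative level of 4.47% and 4.17% in K36M replicates 1 and 2, 6.24% in K9M replicate 1 and 5.96% in WT. K9M replicate 2, which chose them, had a median of 6.31%, and its deposited fraction had quartiles of 1.12%, 6.02% and 16.7%. The means were 9.01% and 8.73% in K36M, 10.3% in K9M replicate 1 and 10.4% in WT. The K36M libraries were the lower pair on both measures, while K9M replicate 1 lay above WT in its median and below it in its mean. Most low tiles were low in every library: 5568 of 6380, or 87.3%, lay under 30% in all 5, and 3379, or 53.0%, lay under 10% in WT, both K36M libraries and K9M replicate 1. Another 85 tiles lay at 30% or more in the 4 libraries that the rule did not use.

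**Figure D1:**
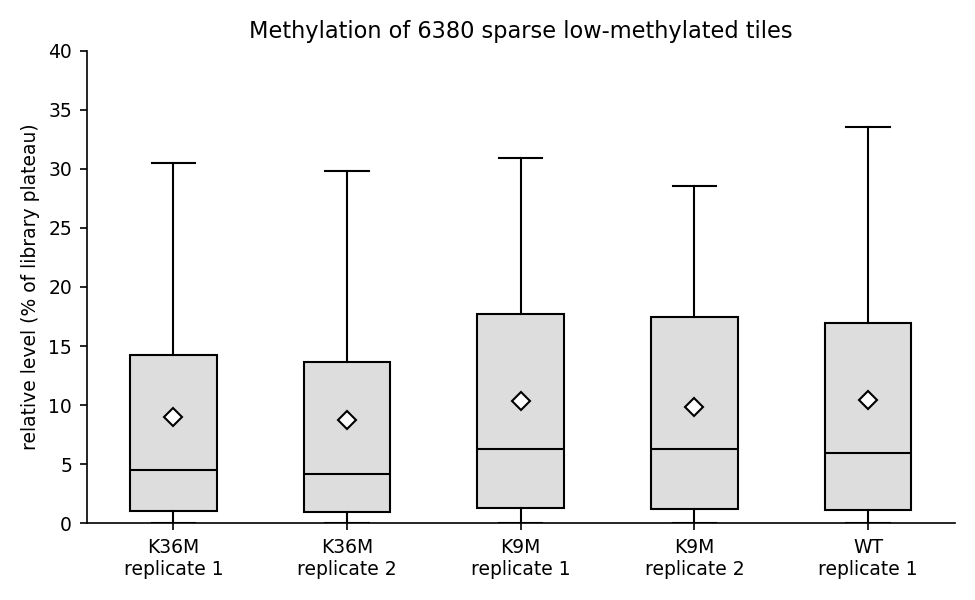
Relative level (percent of the library's plateau) of 6380 sparse low-methylated tiles in each library. Boxes run from the lower to the upper quartile with a line at the median, whiskers from the 5th to the 95th percentile, and diamonds mark the mean. The K36M means, 9.01% and 8.73%, lie below those of K9M replicate 1 (10.3%) and WT (10.4%), and K9M replicate 2 was used to choose the tiles.

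The tiles ranged from empty to partly methylated. In WT 60.7% of them lay under 10% and 32.1% from 10% to under 30%, and the upper quartile was 16.9%. The shares under 10% were 66.0% and 67.6% in K36M and 59.8% in K9M replicate 1. No methylated count at all was seen in 473 and 468 tiles in K36M, 389 in K9M replicate 1 and 387 in WT, and 33 tiles had none in any of the 5 libraries. At the border of the rule, the 240 tiles from 0.28 to under 0.30 in K9M replicate 2 averaged 26.6% ± 0.129 (SD, n = 2) in K36M and 31.4% in WT, and the 192 sparse tiles from 0.30 to under 0.32 averaged 26.8% ± 0.340 and 32.6%, so that the threshold cuts through a continuous range.

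The order of the tiles was alike between libraries. Across the 6380 tiles, Pearson's r was 0.913 between the K36M replicates, 0.905 between the K9M replicates, and 0.843 for WT with either K36M replicate. K36M with K9M replicate 1 stood lower, at 0.765 and 0.777. These values describe tiles that share a library, depth and base composition, and have no test.

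Single CpGs of a low tile mostly shared its state, with exceptions. Of the 41345 CpGs, 42.1% and 40.2% had no methylated count in K36M, 37.6% in K9M replicate 1 and 36.7% in WT. CpGs at 50% or more made up 4.17% and 3.99% in K36M, 4.55% in K9M replicate 1 and 5.04% in WT. In 1062 tiles, 16.6% of them, the highest and lowest CpG of the tile were at least 50 points apart in WT. The same held in 976 and 916 tiles in K36M and 1046 in K9M replicate 1.

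The low tiles with the most measured CpGs, 19 each, show both kinds. On chromosome 2 from 93020001 to 93021000 (mm9), the level was 1.31% and 0.656% in K36M, 1.22% and 1.44% in K9M and 0.820% in WT. No CpG of that tile passed 7.50% in any library, and 10 of 19 had no methylated count in WT. On chromosome 2 from 129400001 to 129401000 the level was 27.8% and 29.7% in K36M, 31.1% and 31.0% in K9M and 26.6% in WT. Its first CpG, at 129400017, stood at 90.9% and 77.6% in K36M, 89.1% and 79.2% in K9M and 78.1% in WT, while the CpG at 129400346 stood at 3.74% and 3.97%, 4.12% and 6.45%, and 6.14% in the same libraries. The 5 libraries thus shared the contrast between these CpGs of the tile, and neither tile was called in K36M against WT.

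Low tiles were on average narrow dips in more methylated surroundings, from which the rule bars dense tiles up to 5 tiles away. Of the 6380, 4222 (66.2%) had at least one measured tile 1 to 5 tiles away, and in those the mean level was 8.63% and 8.35% in K36M, 10.2% in K9M replicate 1 and 10.2% in WT. The mean of their flanking tiles was 57.7% and 58.3% in K36M, 61.4% in K9M replicate 1 and 61.6% in WT. All sparse tiles averaged 84.4% in WT, so these surroundings were less methylated than sparse tiles in general. In WT the low tiles lay 51.4 points below their flanks, or 27.6 points on the scale of the levels as deposited, where a fully methylated CpG reads lower. The flanks averaged 60% or more in 2438 cases and under 30% in 902 cases in WT.

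The dip was about 1 tile wide on either side. In WT, measured tiles directly next to a low tile averaged 38.1% upstream and 38.6% downstream, and those 2 tiles away 72.2% on both sides. At 5 tiles they averaged 77.0% and 75.2%. Of measured tiles directly next to a low tile, 53.5% upstream and 53.0% downstream were low tiles themselves, against 16.7% and 16.4% at 2 tiles and 5.42% and 5.41% at 10 tiles. Low tiles stood alone in 5092 cases, and 596 pairs and 31 longer runs of adjacent low tiles, the longest of 5, held 20.2% of them. Tile borders are fixed, so a low stretch may be cut by one. From 6 to 10 tiles away the WT means were 61.3% to 67.5%; the rule bars dense tiles up to 5 tiles away and allows them from 6, and their part in this step was not tested.

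**Figure D2:**
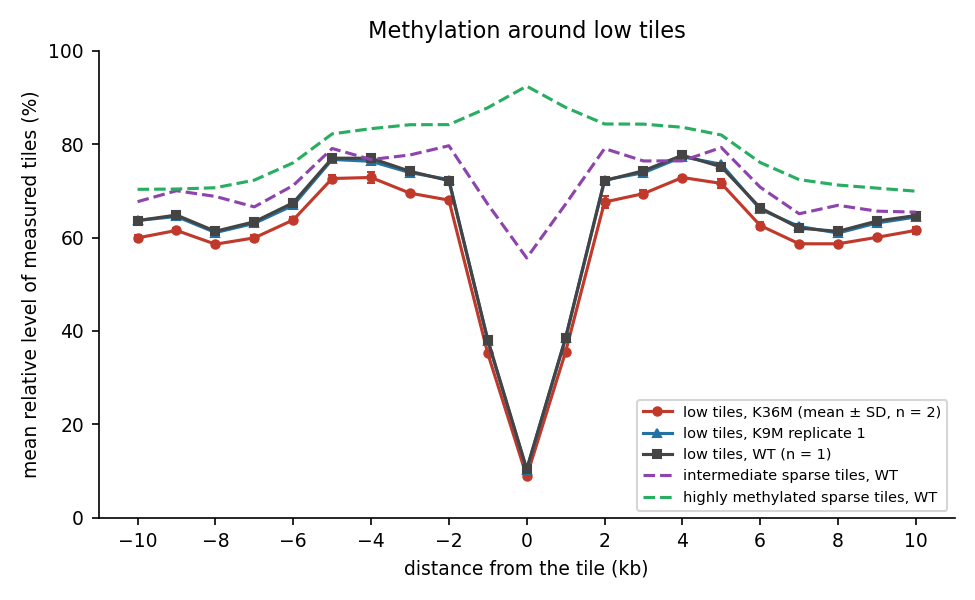
Mean relative level of measured tiles by distance (kb) from a sparse low-methylated tile at 0, in K36M (mean of 2 libraries, bars show the SD), K9M replicate 1 and WT (1 library). Dashed lines show WT around intermediate and highly methylated sparse tiles. K36M lies below WT at each distance, by 1.56 points at the low tile itself and 2.67 to 4.91 points around it.

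Low tiles were spread over all autosomes. They made up 5.37% of sparse tiles on chromosome 1, the lowest share, and 8.36% on chromosome 11, where 494 of 5909 sparse tiles were low. In 494 windows of 5 Mb with at least 50 sparse tiles, the median was 10 low tiles. The window on chromosome 8 from 120000001 to 125000000 (mm9) held the most, 71 of 621 sparse tiles. The highest share, 21.8%, was on chromosome 13 from 20000001 to 25000000, with 42 low tiles of 193, and these averaged 5.14% in WT. The share of low tiles was higher with more CpGs, at 4.14% of sparse tiles with 3 or 4 listed CpGs, 5.64% with 5 to 9, 8.74% with 10 to 14 and 13.1% with 15 to 19. It was lower away from dense tiles, at 8.74% of sparse tiles 6 to 10 tiles from the nearest one and 4.52% of those more than 100 tiles away.

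Within the low tiles, the WT level was lower where listed CpGs were more numerous. The median WT level was 8.03% in low tiles with 3 or 4 listed CpGs, 7.34% with 5 to 9, 5.29% with 10 to 14 and 2.65% with 15 to 19. Distance to a dense tile went with little change of it, from 5.88% at 6 to 10 tiles to 6.61% at more than 100. These shares and medians describe tiles and have no test.

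The comparison of K36M with WT asks whether the lysine 36 mutant goes with another methylation level at these tiles. Neither group's level was used to choose them. The mean level was 8.87% ± 0.204 (SD, n = 2) in K36M and 10.4% in WT (n = 1), a difference of -1.56 points, which is -15.0% of the WT level. K36M replicate 1 lay 1.42 points and replicate 2 1.71 points below WT, and the difference is larger than the spread between the K36M replicates. An exact two-sided permutation test over the 3 libraries gave p = 0.667, the smallest p it allows. Both K36M libraries lay below WT on all 19 autosomes, by -0.180 to -2.46 points in replicate 1 and -0.942 to -2.35 points in replicate 2, but all these values share the 1 WT library. K9M replicate 1, on the same doxycycline, differed from WT by -0.0884 points and lay below it on 11 of 19 autosomes. That sign turns, to 0.944 points with levels as deposited and 0.285 points between medians, so no direction is given for K9M replicate 1.

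The difference was larger at tiles of a higher level. Classes were set by K9M replicate 1, which is on neither side of the difference. In 3818 low tiles under 10% there, K36M averaged 2.97% ± 0.180 (SD, n = 2) and WT 3.39%, a difference of -0.426 points. In 2179 tiles from 10% to under 30%, K36M averaged 16.1% ± 0.260 (SD, n = 2) and WT 19.1%, a difference of -2.93 points. In 383 tiles at 30% or more, K36M averaged 26.3% ± 0.131 (SD, n = 2) and WT 31.5%, a difference of -5.14 points. As a share of the WT level these are -12.6%, -15.4% and -16.3%. By replicate the shares were -8.80%, -14.4% and -16.0% in K36M replicate 1 and -16.3%, -16.3% and -16.6% in replicate 2, so the share was level across classes in replicate 2 and not in replicate 1. In the class from 10% to under 30%, low-level sparse tiles with a dense tile within 5 tiles (1374 tiles) differed by -2.11 points, at 15.1% ± 0.494 (SD, n = 2) in K36M and 17.2% in WT, and CpG-dense tiles (1207 tiles) by -1.49 points, at 14.95% ± 0.729 (SD, n = 2) and 16.4%. In the class of 30% or more the order was another one, with -5.81 points in 151 tiles beside dense tiles, at 24.8% ± 0.840 (SD, n = 2) in K36M and 30.6% in WT, and -2.43 points in 96 dense tiles, at 28.8% ± 1.41 (SD, n = 2) and 31.3%.

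Low tiles with fewer listed CpGs had the wider gap. With 3 or 4 listed CpGs, K36M averaged 9.47% ± 0.103 (SD, n = 2) and WT 11.7%, a difference of -2.26 points. With 5 to 9 listed CpGs it was -1.85 points and with 10 to 14 -1.28 points. With 15 to 19 listed CpGs, K36M averaged 7.25% ± 0.0993 (SD, n = 2) and WT 8.06%, a difference of -0.805 points. The WT level also runs down over these classes. As a share of the WT level the differences were -19.3%, -16.0%, -13.3% and -9.99% from the fewest to the most CpGs, so the narrowing is seen on that scale too.

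Other tiles put these values in place. In the intermediate sparse tiles, 6829 tiles with 0.30 to under 0.70 in K9M replicate 2, K36M averaged 49.9% ± 0.305 (SD, n = 2) and WT 55.6%, which is -5.70 points or -10.3% of the WT level. In the 82943 highly methylated sparse tiles, with 0.70 or more, K36M averaged 90.2% ± 0.793 (SD, n = 2) and WT 92.4%, or -2.45% of the WT level. The point difference of the low tiles was 4.14 points smaller in size than that of the intermediate tiles, with an exact two-sided permutation p = 0.667 over 3 libraries, the smallest possible, so no difference between these classes is shown by a test. With levels as deposited it was 1.59 points. In the 19799 low tiles with 20 or more listed CpGs, the CpG-dense tiles, K36M averaged 2.53% ± 0.176 (SD, n = 2) and WT 2.52%, a difference of 0.0119 points that lies within the replicate spread. In the 6772 sparse tiles of low level with a dense tile within 5 tiles, K36M averaged 5.43% ± 0.264 (SD, n = 2) and WT 6.07%.

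Tile by tile, K36M lay below WT more often than above it. Both K36M libraries were below WT in 2749 low tiles (43.1%) and both above it in 1753 (27.5%). Over all 152678 tiles the shares were 38.8% and 25.1%. Both K36M libraries were below WT and K9M replicate 1 alike in 29.5% of low tiles and above both in 15.1%, against 23.6% and 14.1% of all tiles. Both directions are thus a little more frequent in low tiles than over all tiles. A difference of 10 points or more was seen downward in 494 low tiles (7.74%) and upward in 92 (1.44%), and over all tiles in 14.2% and 5.86%. A tile under 10% in WT cannot show a loss of that size.

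A logistic model fitted to all 152678 tiles, with quasi-binomial dispersion moderated by limma and Benjamini-Hochberg adjustment over all of them, called 147 low tiles lower and 7 higher in K36M than in WT, at an adjusted p under 0.05 and at least 10 points. That is 2.3% and 0.11% of the low tiles, against 0.476% and 0.0144% of all tiles and 0.451% and 0.0198% of all sparse tiles. It is near the intermediate sparse tiles, of which 3.02% were called lower and 0.146% higher. In the classes set by K9M replicate 1, calls of a loss numbered 15 of 3818 tiles under 10%, 107 of 2179 from 10% to under 30% and 25 of 383 at 30% or more. Low-level sparse tiles beside dense tiles had 59 such calls (0.871%) and the low CpG-dense tiles 44 (0.222%).

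The calls need both K36M libraries. Without K36M replicate 1, or without K36M replicate 2, the logistic model called 0 low tiles in either direction, and these fits keep only 1 residual degree of freedom. Counting tiles 10 points or more apart with a p under 0.05 before adjustment, there were 382 lower and 70 higher without replicate 1 and 346 and 65 without replicate 2, against 410 and 62 with all libraries. Without K9M replicate 1 there were 44 lower and 0 higher calls, and without K9M replicate 2, the library of the rule, 43 and 0. With limma on the relative levels 107 low tiles were called lower and 3 higher, of 256 and 5 over all tiles. With edgeR's quasi-likelihood test 261 low tiles were called lower and 24 higher. The logistic model on the levels as deposited, without a plateau, called 0 and 0, and 60 and 1 before adjustment. On that scale the K9M replicates differ, at means of 55.6% and 91.3% in highly methylated sparse tiles, and this enters the shared spread. That fit therefore cannot show whether the calls hold.

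**Figure D3:**
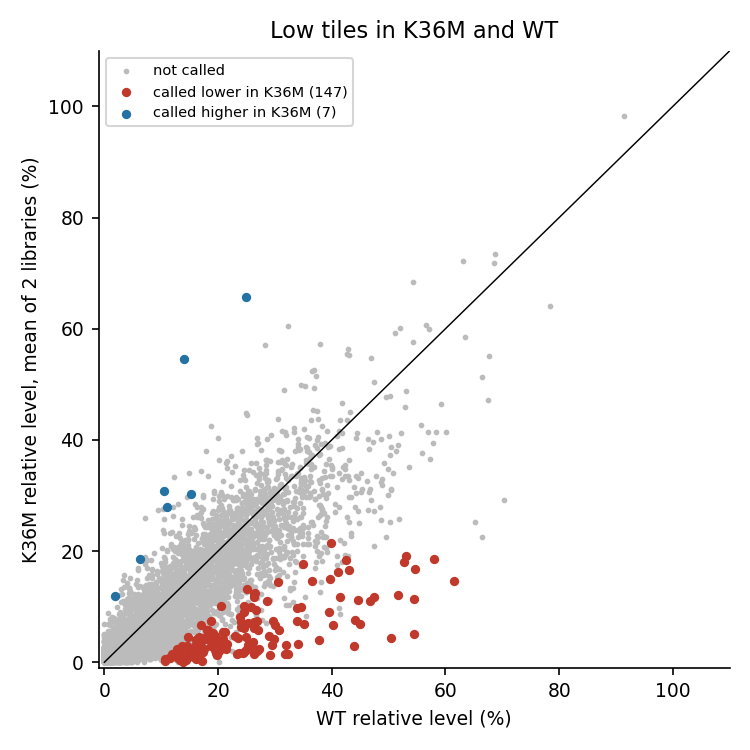
Relative level of each of 6380 low tiles in K36M (mean of 2 libraries, vertical axis) and WT (horizontal axis), both in percent of the plateau, with the line of equal levels. The 147 tiles called lower lie far below the line, mostly near the bottom of the plot, and the 7 called higher lie above it.

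The tiles called lower had a low mean level in K36M, though not all were nearly empty there. Their mean level was 5.64% and 5.43% in K36M replicates 1 and 2, 21.1% in K9M replicate 1 and 25.4% in WT, and the K9M replicate 2 mean was 19.4%. K36M and WT levels chose these tiles. K9M replicate 1 was used neither by the level rule nor in the difference. It did enter the fit's estimate of spread, where calls favour tiles at which the K9M libraries agree. Its values are thus not fully free of the choice. K9M replicate 1 lay above both K36M libraries in 141 of the 147 and above WT in 56. It was nearer to WT than to the K36M mean in 111, and 10 points or more below WT in 38. The median difference was -17.2 points, 53 tiles differed by 20 points or more and 21 by 30 or more. In 77 of the 147 tiles both K36M libraries stood under 5%, while the tile on chromosome 4 from 43419001 to 43420000 kept 20.4% and 22.7%. Of the 924 measured CpGs of the 147 tiles, both K36M libraries lay below WT at 836 (90.5%), and in 93 tiles at every measured CpG. Over all CpGs of low tiles, that share was 32.8%. The call was made on the summed counts of the same CpGs, so it largely fixes the share in called tiles. The calls lay on all 19 autosomes, with 18 of 494 low tiles on chromosome 11 (3.64%), 16 of 380 on chromosome 8 (4.21%) and 12 of 296 on chromosome 3 (4.05%). By share, chromosome 18 stood highest, with 8 of 177 (4.52%), and chromosome 17 lowest, with 3 of 336 (0.893%).

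The fit of a called tile did not include the counts of its flanks, but flanks could themselves be called tiles. On chromosome 6, for instance, the called tiles starting at 115953001 and 115954001 are flanks of each other. For the 105 tiles called lower that had measured flanks, the flanks averaged 58.3% ± 0.465 (SD, n = 2) in K36M, 68.6% in K9M replicate 1 and 66.4% in WT, a difference of -8.15 points between K36M and WT. For the 4113 uncalled low tiles with flanks it was 58.0% ± 0.437 (SD, n = 2) in K36M, 61.2% in K9M replicate 1 and 61.5% in WT, or -3.48 points. Flanks lay below WT in both K36M libraries for 81 of the 105 tiles (77.1%) and for 50.8% of the uncalled ones. K36M thus lay below WT around the called tiles too, and by more than around the uncalled ones. Called tiles among the flanks may share in that difference, which was not tested.

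The largest called loss was on chromosome 9 from 20930001 to 20931000 (mm9), with 4 measured CpGs. The level was 6.86% and 3.33% in K36M, 15.5% and 24.1% in K9M and 54.4% in WT (95% Clopper-Pearson interval 41.2% to 71.6%, counting error only). The difference was -49.3 points, with an adjusted p of 0.00201 (logistic model with limma moderation). K36M was lowest, and WT stood far above all 4 mutant libraries.

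The smallest adjusted p among the 10 largest losses belonged to the tile on chromosome 9 from 106233001 to 106234000, with 5 measured CpGs. It stood at 5.10% and 3.47% in K36M, 32.03% and 23.9% in K9M and 50.5% in WT, with an adjusted p of 0.000522 (logistic model with limma moderation). Its CpGs ran from high on the left to low on the right in WT, at 72.9% at 106233144, 68.4% at 106233159, 43.2% at 106233199, 50.96% at 106233234 and 25.8% at 106233258. At the same CpGs K36M replicate 1 had 21.9%, 4.49%, 3.48%, 2.42% and 0 methylated counts, and K36M replicate 2 had 4.18%, 4.41%, 3.36%, 3.40% and 2.09%. K9M replicate 1 had 61.9%, 47.6%, 26.4%, 25.6% and 11.4% there. The K36M libraries lay lowest at all 5 CpGs, and the slope along the tile is seen in K9M as in WT.

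On chromosome 12 from 12558001 to 12559000 the level was 12.5% and 16.9% in K36M, 26.0% and 23.9% in K9M and 61.5% in WT. One CpG of this tile, at 12558734, was still at 68.6% and 77.0% in K36M, with 61.4% and 64.0% in K9M and 106% in WT, while the CpG at 12558846 had no methylated count in either K36M library, 11.2% and 12.0% in K9M and 16.2% in WT. On chromosome 4 from 120647001 to 120648000 the values were 7.02% and 8.06% in K36M, 24.0% and 20.3% in K9M and 44.1% in WT. On chromosome 18 from 78060001 to 78061000, the tile with the most CpGs of these losses (10), they were 8.44% and 15.9% in K36M, 11.3% and 14.4% in K9M and 51.6% in WT. There all 4 mutant libraries were low and WT alone was high, so the call does not set K36M apart from K9M.

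On chromosome 18 from 76382001 to 76383000, K36M had 10.6% and 12.1%, K9M 17.9% and 30.1% and WT 54.5%. On chromosome 13 from 46014001 to 46015000, K36M had 17.6% and 16.0%, K9M 24.4% and 23.4% and WT 54.6%. Both K36M libraries were the lowest in each of these tiles. On chromosome 16 from 49802001 to 49803000, K36M had 9.27% and 4.57%, K9M 31.3% and 28.04% and WT 44.9%. On chromosome 14 from 55111001 to 55112000, K36M had 17.4% and 19.6%, K9M 41.7% and 18.4% and WT 57.9%. In another of the 10, on chromosome 18 from 80806001 to 80807000, K36M had 1.35% and 4.67%, the K9M libraries disagreed at 72.8% and 25.7%, and WT had 43.9%. Its 3 measured CpGs had the lowest counts of the 10, with 48 second counts in WT.

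In 9 of these 10 tiles WT was the highest of the 5 libraries, and in 8 the K36M libraries were the lowest pair. The call sets K36M below WT and the level rule keeps K9M replicate 2 low, so the choice of tiles partly fixes these ranks. K9M replicate 1 lay above both K36M libraries in 9. The adjusted p-values of the 10 ran from 0.000522 to 0.0399 (logistic model with limma moderation). As for all called low tiles, these calls need both K36M libraries. None of the 10 was kept by the logistic model with levels as deposited or with the replicate number as a block. Of the 10, 7 were also called by limma on the relative levels, 8 with a plateau set by the top 40% of tiles, 6 at a coverage minimum of 5 counts, and 5 when either one of the K9M libraries was left out.

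**Figure D4:**
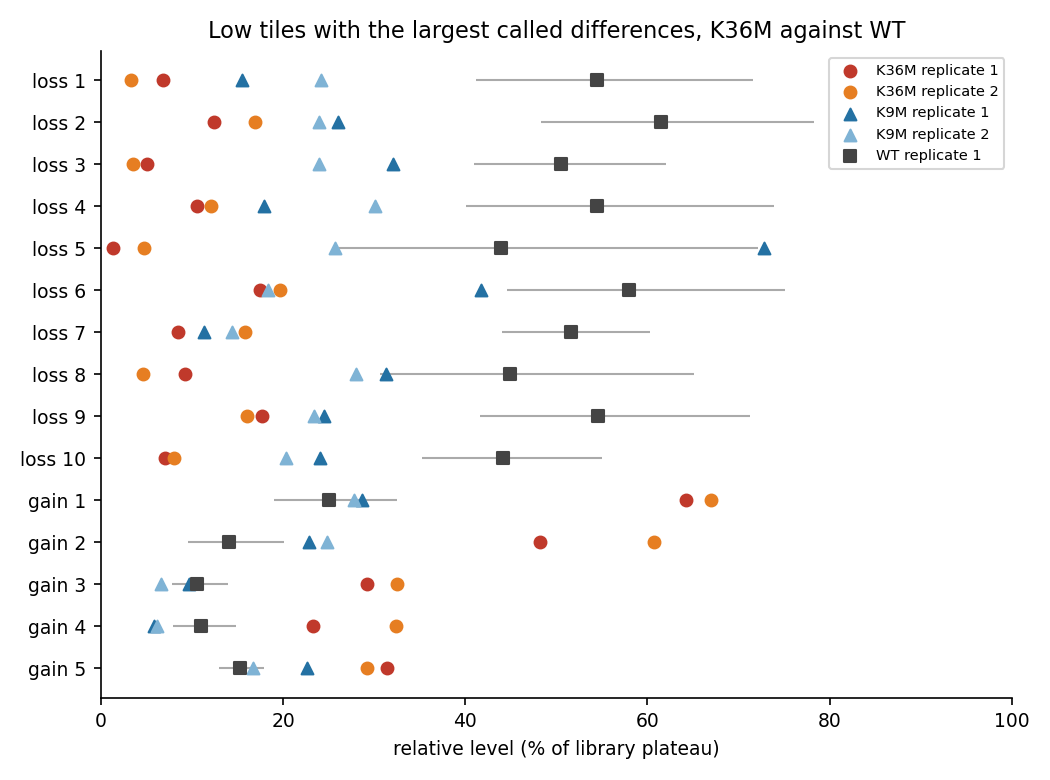
Relative level (percent of the plateau) in each library for the 10 largest called losses and the 5 largest called gains in K36M against WT among low tiles, in the order of their difference. Points are single libraries and grey lines the 95% counting interval of WT. In 9 of 10 losses WT is the highest library, and in all 5 gains both K36M libraries lie above the other 3. The calls and the level rule partly fix this order.

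The 7 tiles called higher averaged 32.6% and 35.9% in K36M, 14.01% and 13.3% in K9M and 12.0% in WT. Of their 47 measured CpGs, 39 were above WT in both K36M libraries, a count that the call on the same CpGs largely fixes. In the 5 largest gains both K36M libraries lay above the 3 others. Here too the call sets K36M above WT and the rule keeps K9M replicate 2 low, so the choice partly fixes this order. On chromosome 18 from 36291001 to 36292000, K36M stood at 64.3% and 67.0%, K9M at 28.7% and 27.8% and WT at 24.98%, with a difference of 40.7 points and an adjusted p of 0.0172 (logistic model with limma moderation). At each of its 4 CpGs both K36M libraries were the highest: the lowest K36M value, 34.8% at 36291054, compares with 16.8% and 12.6% in K9M and 4.05% in WT, and the highest, 91.1% at 36291091, with 42.1% and 42.8% in K9M and 44.8% in WT. The shape along the tile was shared by all libraries, with the K36M values shifted upward.

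On chromosome 19 from 37870001 to 37871000, K36M stood at 48.2% and 60.7%, K9M at 22.9% and 24.8% and WT at 14.1%, with an adjusted p of 0.00712 (logistic model with limma moderation). The 4 CpGs of that tile were at 42.4% to 73.1% in K36M replicate 1, 57.8% to 63.9% in K36M replicate 2, 19.3% to 28.3% in K9M replicate 1 and 12.4% to 21.1% in WT. On chromosome 17 from 37108001 to 37109000, K36M had 29.2% and 32.5%, K9M 9.61% and 6.55% and WT 10.5%. On chromosome 9 from 103376001 to 103377000, K36M had 23.3% and 32.4%, K9M 5.81% and 6.20% and WT 10.9%. The fifth, on chromosome 18 from 32591001 to 32592000 with 16 measured CpGs, had 31.4% and 29.2% in K36M, 22.6% and 16.6% in K9M and 15.3% in WT. None of these 5 calls was kept when any one of the 4 mutant libraries was left out, and limma on relative levels kept 1.

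Among low tiles, all at least 6 tiles from a dense tile, the gap between K36M and WT was wider near dense tiles than far from them. Closer in, low-level sparse tiles with a dense tile within 5 tiles, which are not among the low tiles, had a smaller gap. They stood at 5.43% ± 0.264 (SD, n = 2) in K36M and 6.07% in WT, a difference of -0.638 points. In the 1085 low tiles 6 to 10 tiles from the nearest dense tile, K36M averaged 8.19% ± 0.267 (SD, n = 2) and WT 10.2%, a difference of -1.98 points. From 11 to 20 tiles (1336 low tiles) K36M averaged 8.30% ± 0.209 (SD, n = 2) and WT 10.3%, a difference of -2.05 points. From 21 to 50 tiles the difference was -1.67 points and from 51 to 100 tiles -1.13 points. In the 781 low tiles more than 100 tiles away, K36M averaged 10.2% ± 0.0495 (SD, n = 2) and WT 10.8%, a difference of -0.562 points.

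The WT level hardly changed over these classes, and K9M replicate 1 differed from WT by -0.232 to 0.0391 points over them. K36M replicates 1 and 2 both followed the same course, at -1.80 and -2.17 points in the nearest class and -0.527 and -0.597 points in the farthest. Calls of a loss made up 3.41% and 3.44% of low tiles in the 2 nearest classes, then 2.03%, 1.58% and 0.640%. The median number of measured CpGs was 6 in the 2 nearest classes and 5 in the others, and the median second count per CpG lay between 39.3 and 41.5 throughout. On 17 of 19 autosomes the difference was more negative within 20 tiles of a dense tile than past 50 tiles. The same course was seen in the intermediate sparse tiles, from -7.96 points in the nearest class to -2.91 points in the farthest, and in the highly methylated ones, from -2.99 to -1.40 points. The classes share the WT library and have no test.

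**Figure D5:**
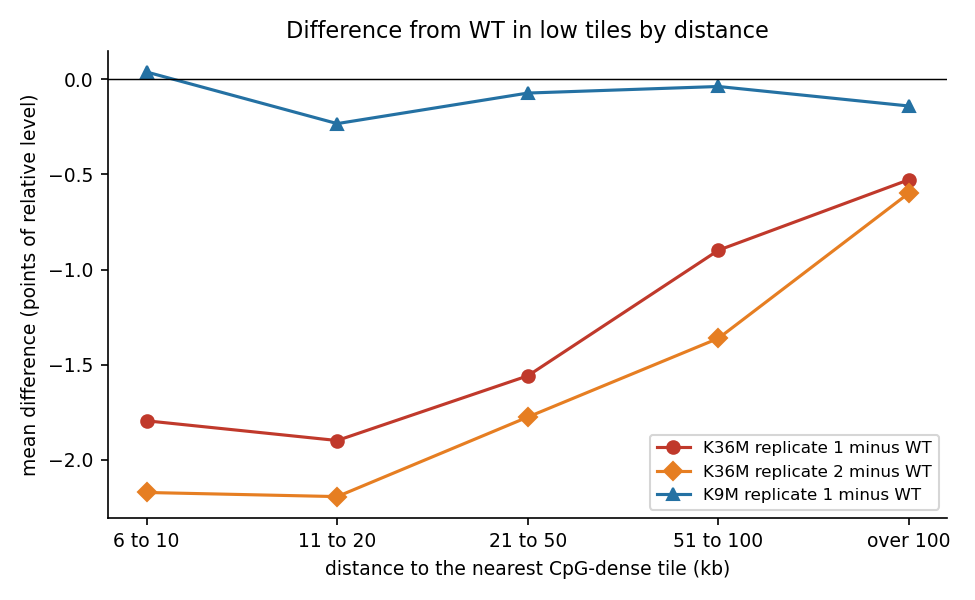
Mean difference from WT (points of relative level) in low tiles by distance to the nearest tile with 20 or more listed CpGs (kb), for each K36M library and K9M replicate 1. Both K36M lines run from about -2 points at 6 to 10 kb from dense tiles to about -0.6 points more than 100 kb away, and K9M replicate 1 stays near 0.

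Among low tiles with measured flanks, the difference in points was larger in flank classes where the low tiles had a higher WT level. Low tiles whose flanks averaged 60% or more in K9M replicate 1 (2438 tiles) stood at 9.50% ± 0.210 (SD, n = 2) in K36M and 11.5% in WT, a difference of -1.99 points. Those with flanks under 30% there (899 tiles) stood at 6.24% ± 0.232 (SD, n = 2) in K36M and 7.38% in WT, a difference of -1.15 points. Between them, with flanks from 30% to under 60% (885 tiles), K36M stood at 8.01% ± 0.123 (SD, n = 2) and WT at 9.32%, a difference of -1.32 points. As a share of the WT level these were -17.3%, -15.5% and -14.1%, with no steady course from low to high flanks. The flanks themselves averaged 81.9% ± 0.803 (SD, n = 2) in K36M and 86.2% in WT with flanks of 60% or more. Calls of a loss made up 2.91% of low tiles with such flanks and 1.78% of those with flanks under 30%. The 2158 low tiles without a measured flank stood at 9.61% ± 0.220 (SD, n = 2) in K36M and 10.97% in WT, a difference of -1.36 points.

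K9M was compared with WT only through replicate 1, since replicate 2 chose the tiles, and no test of that difference was run. Replicate 1 averaged 10.3% and WT 10.4%. A few low tiles were high outside K9M. Only 14 low tiles stood at 60% or more in WT, and K9M replicate 1 was under 30% in 5 of them and at 60% or more in none. Both K36M libraries were at 60% or more in 4 of the 14 and under 30% in 2. The choice of tiles low in a K9M library favours tiles low in K9M, so these counts are a description.

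The highest WT level of a low tile was on chromosome 7 from 132021001 to 132022000, with 105% and 91.3% in K36M, 9.77% and 11.2% in K9M and 91.4% in WT. At all 3 of its measured CpGs both K9M libraries lay below the other 3 libraries: at 132021782 the levels were 110% and 87.1% in K36M, 6.37% and 8.64% in K9M and 96.2% in WT. On chromosome 7 from 87975001 to 87976000 the tile stood at 64.9% and 63.3% in K36M, 32.9% and 28.8% in K9M and 78.4% in WT. On chromosome 6 from 97179001 to 97180000 they were 28.1% and 30.3% in K36M, 39.98% and 30.2% in K9M and 70.3% in WT, so that WT alone was high. The last of these differed between K36M and WT by -41.1 points but was not called, at adjusted p = 0.116 (logistic model with limma moderation), while edgeR gave 0.00573. No low tile passed 120% in any library.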

How the data were processed

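The series gives 1 table per library. Per the submitters' processing notes, cutadapt, BSMAP and mm9 were used; versions and settings are not given in the sources used here. The deposited values at each CpG are a fraction and a total count. Positions are printed from 1, with the deposited starts read as counted from 0. The methylated count is the deposited fraction times the deposited total, rounded, which was whole for 100% of CpGs in 4 libraries and 89.2% in K9M replicate 2. The second count is the total minus the methylated count (in K9M replicate 2, the total itself). The ratio of both was divided by the plateau, its median in the top 20% of tiles by rank averaged over the libraries (1.22 and 1.26 in K36M, 1.37 and 0.954 in K9M, 1.23 in WT). A tile's counts were summed and tested in 1 fit of all 5 libraries to methylated and second counts, with the log plateau as offset, 2 residual degrees of freedom, Pearson dispersion moderated with limma's squeezeVar along log mean count and held at or above 1, and adjustment over all tiles. WT, with 1 library, is taken to vary as the mutant groups do, and CpGs of 1 read share their molecule. If second counts hold methylated reads too, these reads enter both counts, so binomial errors and counting intervals are approximate. Plateaus above 1, as in 4 libraries, mean more methylated than second counts there, which that reading does not account for. R 4.3.3, limma 3.58.1 and edgeR 4.0.16 were used, and the fit was tested on simulated data. Same-numbered mutant libraries did not deviate together tile by tile (r = 0.00443 over 6380 tiles), a value that does not see a shift shared by all tiles. The tiles, classes and tests were chosen with earlier results of these data known. Tiles were named by a rule: the 10 largest called losses, the 5 largest called gains, the 2 with the most measured CpGs and the 3 with the highest WT level. No mm9 genome was used here, so no gene or sequence is given. Alternatives changed the plateau, the unit, the coverage minimum, the tiles, the test and the libraries.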

Additional observations from a re-analysis of the deposited data

How the results depend on the processing

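The lower mean of low tiles in K36M than in WT, -1.56 points, kept its direction under all alternatives tried, at -0.982 points with a threshold of 0.20, -2.08 with 0.40, -1.29 with at least 5 measured CpGs and -1.42 to -1.71 without 1 K36M library. K9M replicate 1 minus WT, -0.0884 points, changed sign to 0.944 points with levels as deposited and 0.285 points with the median of tiles. The smaller difference of low than intermediate tiles, 4.14 points, was 3.73 when the top 40% of tiles set the plateau, 1.59 with levels as deposited, 4.02 and 4.47 at coverage minimums of 5 and 20, 4.48 and 3.77 at thresholds of 0.20 and 0.40, 4.32 with tiles shifted by 500 bases, 4.69 with at least 5 measured CpGs, 4.28 with medians, and 4.07 to 4.21 without 1 K36M library. The depth of the dip in WT, -51.4 points, was -52.9, -27.6, -47.9 (coverage minimum of 20), -53.3, -49.0, -50.7, -43.1 and -57.1 under those settings in that order. The share under 10% in WT, 60.7%, was 58.4% with levels as deposited, 59.3% and 65.7% at coverage minimums of 5 and 20, 74.0% and 51.8% at thresholds of 0.20 and 0.40, 64.0% with at least 5 measured CpGs and 63.4% weighted by second count. The difference in tiles at 30% or more in K9M replicate 1 was -4.94 when the top 40% of tiles set the plateau and -3.74 with levels as deposited, where that from 10% to under 30% was -2.54; without 1 K36M library the 3 classes were at -0.299 to -0.553, -2.75 to -3.11 and -5.04 to -5.23. The difference within 20 tiles of a dense tile minus that past 100 tiles, -1.46 points and chosen after seeing the data, was -1.83 at a coverage minimum of 20, -1.26 and -1.82 at thresholds of 0.20 and 0.40, and -1.33 to -1.59 without 1 K36M library.

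Calls moved far more. Over all tiles, 726 lower and 22 higher calls became 511 and 10 at a coverage minimum of 5 and 256 and 5 by limma. The 147 lower and 7 higher low tiles became 94 and 3 at a coverage minimum of 5, 261 and 24 by edgeR, 107 and 3 by limma, 82 lower at a threshold of 0.20, 11 higher at 0.40, and 0 and 0 with levels as deposited. Without 1 mutant library they were 0 to 44 and 0 to 0. With the replicate number as a replicate block, the logistic model called 0 and 0 tiles (295 and 36 before adjustment) with 1 residual degree of freedom. The titles share only a number, and no label pairs the libraries. Autosomal second counts summed to 84095188 and 84531305 in K36M and K9M replicate 1, and 103347568 and 108651379 in replicate 2. Whether same-numbered libraries were handled together is not known. The cause of these moves was not tested. Fits without 1 mutant library or with the block also had fewer degrees of freedom, and with levels as deposited the K9M libraries differ in scale. The median low tile has 237.5 second counts in WT, and the part of depth was not tested either.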
